A study of Mus musculus with 9 samples.

Results

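The ADAM, ADAMTS and ADAMTS-like genes were examined in osteocyte-enriched bone of virgin, lactating and weaned mice. A gene was a member if its symbol read Adam or Adamts with a number, or Adamtsl with a number, and if at least 1 probe set was annotated to that gene and to no other. This gave 48 of the 18194 genes measured: 28 ADAM genes, 15 ADAMTS genes and 5 ADAMTS-like genes, read from 82 probe sets. For the 22 members with several probe sets, the one with the highest signal, averaged across the 9 arrays, stood for the gene.

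The samples were CD-1 mice aged 16 to 18 weeks, in 3 groups of 3 arrays of an Affymetrix mouse expression design. The virgin mice were age-matched, the lactation mice were on day 12 of lactation, and the post-lactation mice were taken 7 days after weaning that was forced on day 12. Litters of the mothers held 8 to 13 pups. The labels name no engineered allele and no drug in any group. Most fields give tibial shafts as the source of the RNA and 1 sentence of the protocol speaks of femurs. From the shafts, periosteum and marrow had been taken off and the surfaces digested with collagenase, trypsin and EDTA, so the tissue is enriched for osteocytes and is not a pure cell population. Groups follow the array titles; for post-lactation, the field that gives the source says virgin, against the title. No label says that each array came from its own mouse, so a p-value reflects how far these 9 samples vary, which may be partly technical.

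ADAMs are membrane-anchored proteins with a metalloprotease and a disintegrin domain. The catalytically active ones cut the extracellular parts off other membrane proteins, a process called shedding, and thereby release growth factors and cytokines or start Notch signalling; several others lack the catalytic site or are made mainly in testis and epididymis. ADAMTS proteases are secreted, carry thrombospondin repeats and cut matrix: aggrecan and versican, the propeptides of procollagen, or cartilage oligomeric matrix protein. ADAMTS-like proteins hold the thrombospondin repeats without the protease and bind microfibrils. Osteocytes lie in the mineralised matrix, and in lactation they are known to take up mineral and matrix from the walls of their lacunae.

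The array columns were not processed alike. Exactly equal values tied them into 3 array sets, which take 1 array from each group. The tie was loose in set 1, where a pair of arrays shared 2.50% to 2.72% of their values against 36.1% to 44.1% in the other sets, and with which other arrays set 1 was summarised is not known. The arrays of set 1 are virgin 1 with lactation 3 with post-lactation 1. Set 2 joins virgin 2 to lactation 2 to post-lactation 3, and the remaining arrays, numbered 3, 1 and 2 in their groups, make up set 3. The median log2 signal of an array was between 4.32 and 4.34 for set 1, between 4.80 and 4.82 for set 2, and 4.57 for set 3, so every comparison was also fitted with the array set as a block, and the differences that stood out are given within each set. Virgin 1 stood apart: Sost, the osteocyte gene for sclerostin, had a log2 signal of 8.14 there against 13.39 and 13.55 in the other virgin arrays. The osteocyte markers, each as a multiple of its array's median signal, summed to 294.8 in virgin 1, to 1465 and 1875 in virgin 2 and 3, and to between 901 and 1546 in the other arrays. Where a difference from virgin is given and leaving out virgin 1 moved it by over 1.5 times, the value without it follows.

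At the background level used here, most of the family was near background in this tissue. The background level was set at a log2 signal of 4.87, the 40th percentile of the gene means, and a gene was called near background when none of its group means exceeded it. By that rule 26 of 48 members, or 54.2%, were near background, against 38.6% of all genes. With other choices of the level the count was 18 to 33 members, so that it was not always a majority. Their highest group means ran from 2.16 for Adam25 to 4.85 for Adamts7. A signal near background does not show that a transcript is missing, because probe sets differ in how strongly they bind; for the same reason levels of different genes were not compared.

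The members above background were unevenly spread over the roles. Of 9 widely expressed proteolytic ADAMs, 8 were above background, all but Adam28. Of 16 ADAMs that are mainly known from testis, epididymis or other sites, such as Adam2 and Adam3 of the sperm surface, 15 were near background; Adam4 was the exception, with log2 group means of 5.70 in virgin, 5.71 in lactation and 5.83 in post-lactation. Of 6 testis markers, 5 were near background too, and their sum, each as a multiple of the array's median signal, was 3.83 to 4.22 in virgin, 4.11 to 4.22 in lactation and 4.22 to 4.58 in post-lactation arrays. Of the 3 neuronal ADAMs without protease activity, Adam11 was above background by a small margin, with group means of 4.93 to 5.02, and Adam22 and Adam23 were not.

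**Figure D1:**
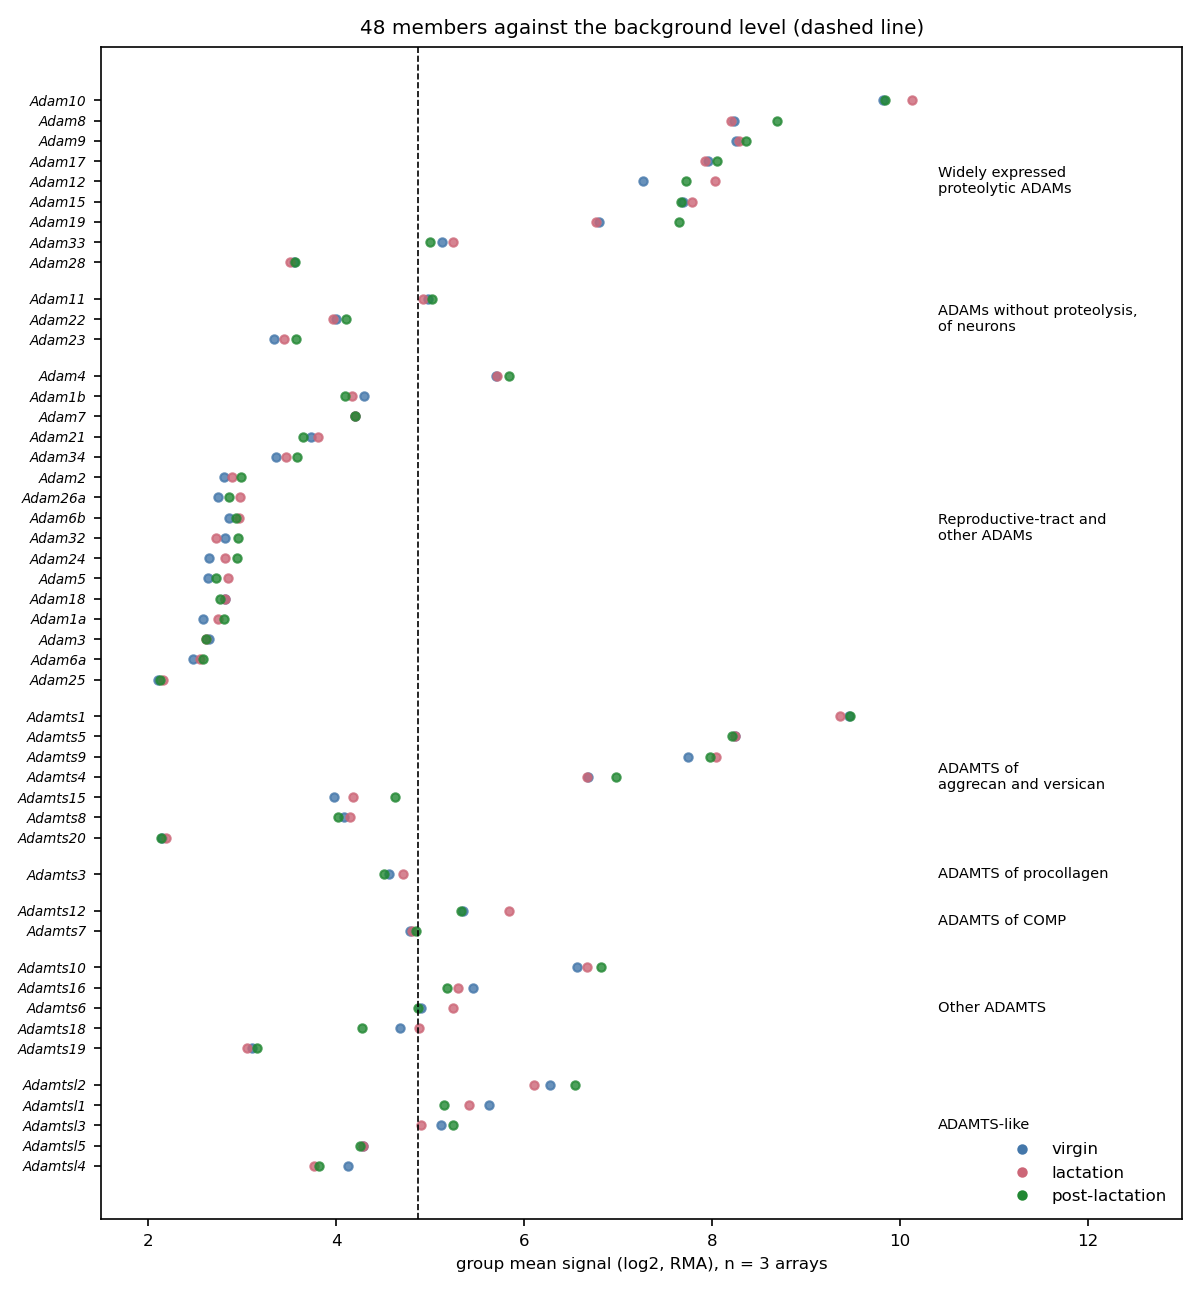
Group mean log2 signal (horizontal axis, n = 3 arrays) of each of the 48 members, arranged by role; colours mark virgin, lactation and post-lactation, and the dashed line is the background level of 4.87. The proteolytic ADAMs lie right of the line except Adam28, the reproductive-tract ADAMs lie left of it except Adam4, and the 3 group means of most members nearly coincide.

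Among the secreted proteases, 4 of 7 ADAMTS genes for aggrecan and versican enzymes were above background (Adamts1, Adamts4, Adamts5 and Adamts9), while Adamts8, Adamts15 and Adamts20 were near it. Of the procollagen N-proteinases, which trim the amino-terminal propeptide of fibrillar collagens, Adamts3 was near background with a highest group mean of 4.71, and Adamts2 and Adamts14 were not analysed here. Adamts12 was above background and Adamts7 was not; both are known to cut cartilage oligomeric matrix protein. Of 5 further ADAMTS genes, Adamts6, Adamts10, Adamts16 and Adamts18 were above and Adamts19 was near background. Adamtsl1, Adamtsl2 and Adamtsl3 were above background among the 5 ADAMTS-like genes.

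The sheddases with the widest range of substrates are Adam10 and Adam17. Adam10 encodes the enzyme that makes the first ligand-induced cut of Notch. Its log2 signal was 9.50, 10.09 and 9.86 in virgin 1 to 3, 10.05, 10.35 and 9.99 in lactation 1 to 3, and 9.71, 9.86 and 9.93 in post-lactation 1 to 3. The post-lactation arrays all lay below the lactation arrays, by a mean of 0.30 (SE 0.22, and 0.092 with the array set block), and the virgin arrays overlapped both groups. Post-lactation and lactation did not overlap, in either direction, for 1337 of 11172 genes above background and for 2 of 22 members. Within sets 1 to 3 Adam10 differed by 0.49, 0.27 and 0.19 in lactation against virgin, a mean of 0.31, and by -0.28, -0.42 and -0.19 in post-lactation against lactation. Without virgin 1 the former mean was 0.15, and without lactation 2 they were 0.20 and -0.18. Neither Adam10 difference passed the test after adjustment (limma adjusted p with the block 0.377 and 0.194). In lactation against virgin, an Adam10 probe set other than the one used gave -0.18, 0 and 0.52 in sets 1 to 3. A further one above background gave -0.44, 0 and 0.36. In post-lactation against lactation their mean differences were -0.57 and -0.15. Adam17 encodes TACE, which releases TNF and ligands of the EGF receptor. Its signal was 7.99, 7.93 and 7.94 in virgin, 8.02, 8.05 and 7.70 in lactation, and 7.77, 8.07 and 8.33 in post-lactation, with all 3 groups overlapping.

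Adam9 and Adam15 also overlapped between groups. Adam9, a membrane protease that also binds integrins, read 8.55, 8.07 and 8.15 in virgin, 8.24, 8.47 and 8.16 in lactation, and 8.52, 8.24 and 8.33 in post-lactation. Adam15, whose disintegrin domain binds integrins, read 7.47, 7.90 and 7.70 in virgin, 7.80, 7.90 and 7.65 in lactation, and 7.42, 7.70 and 7.90 in post-lactation. In neither gene did any pair of groups separate. Part of this sameness lies in the deposited values: Adam15 has the same value in all 3 arrays of set 2, and a difference of exactly 0 within a set was found for 16 to 23 of the 48 members in sets 2 and 3 and for 1 to 3 in set 1, depending on the comparison.

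Adam8, Adam28 and Adam33 showed no separation either. Adam8, which leukocytes and osteoclasts make, read 8.69, 8.55 and 7.47 in virgin, 8.16, 7.94 and 8.50 in lactation, and 8.75, 8.48 and 8.85 in post-lactation. The post-lactation mean of Adam8 was 0.49 (SE 0.31) above lactation, and 1 lactation array reached above the lowest post-lactation array. Adam33, known from smooth muscle and fibroblasts of the airway, read 4.71, 5.14 and 5.53 in virgin, 5.61, 5.14 and 4.98 in lactation, and 4.33, 5.53 and 5.14 in post-lactation. Adam28, a lymphocyte ADAM, read 3.32, 3.80 and 3.52 in virgin, 3.52, 4.01 and 2.98 in lactation, and 3.32, 3.52 and 3.86 in post-lactation, and can be read only as near background.

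Adam12 and Adam19 were the proteolytic ADAMs with the widest spacing of groups. Adam12 encodes meltrin alpha, known from fusing myoblasts and from osteoclast formation, and cuts insulin-like growth factor binding proteins. Its signal was 6.76, 7.54 and 7.48 in virgin, 7.84, 8.31 and 7.95 in lactation, and 7.54, 7.61 and 8.03 in post-lactation. Every lactation array lay above every virgin array, and the post-lactation arrays overlapped both, reaching down to the highest virgin array. Adam19 encodes meltrin beta, which sheds neuregulin. Its signal was 6.27, 7.16 and 6.96 in virgin, 6.66, 6.86 and 6.76 in lactation, and 7.78, 7.58 and 7.58 in post-lactation. All post-lactation arrays lay above all other arrays, while virgin and lactation overlapped.

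**Figure D2:**
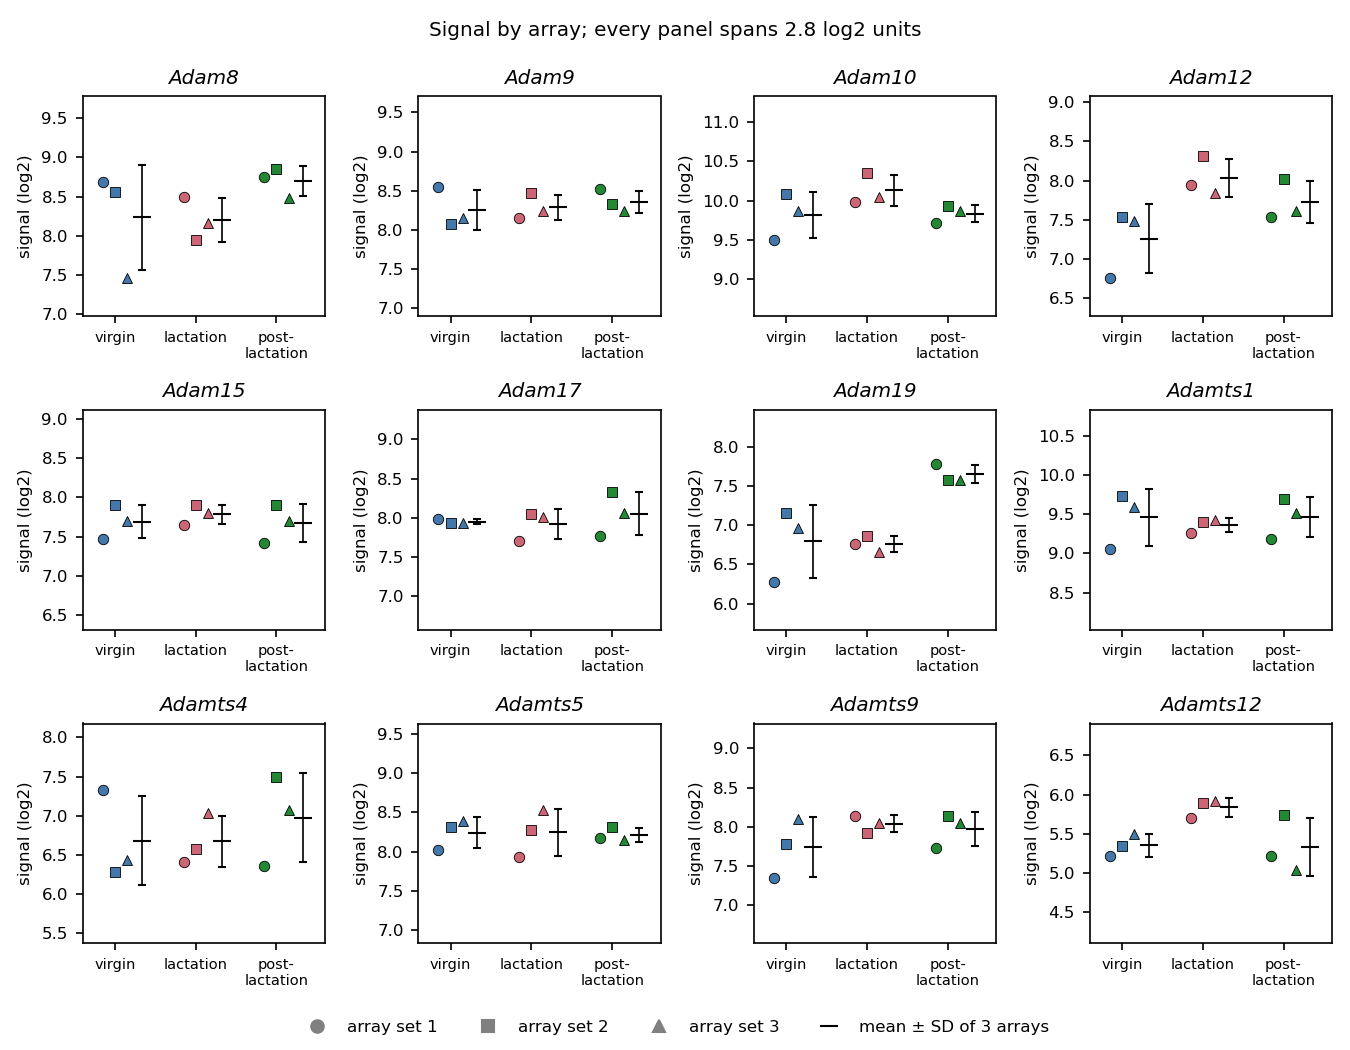
Log2 signal of 12 members in each array; every panel spans the same log2 range on its own offset, marker shapes give the array set, and bars give the mean and SD of 3 arrays. Adam12 has its lowest value, 6.76, in virgin 1, Adam19 is highest in the post-lactation arrays at 7.58 to 7.78, and Adamts12 has its highest group mean in lactation, with arrays at 5.70 to 5.92.

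The aggrecan- and versican-cutting ADAMTS genes did not separate the groups. Adamts1, induced by parathyroid hormone in bone, read 9.05, 9.73 and 9.59 in virgin, 9.42, 9.40 and 9.27 in lactation, and 9.19, 9.51 and 9.70 in post-lactation. Adamts5, the main aggrecanase of mouse cartilage, read 8.02, 8.32 and 8.39 in virgin, 8.53, 8.27 and 7.93 in lactation, and 8.17, 8.15 and 8.32 in post-lactation. Their means differed by at most 0.10 between any pair of groups.

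Adamts9 and Adamts4 varied more from array to array. Adamts9, a versican-cutting protease, read 7.35, 7.78 and 8.10 in virgin, 8.05, 7.92 and 8.14 in lactation, and 7.73, 8.05 and 8.14 in post-lactation. Adamts4, the first aggrecanase described, read 7.33, 6.28 and 6.43 in virgin, 7.03, 6.57 and 6.41 in lactation, and 6.36, 7.08 and 7.49 in post-lactation. The arrays of each group of Adamts4 spread so widely that all 3 groups overlapped. A second Adamts4 probe set differed from it: its lactation mean was 0.41 below virgin where the first gave a difference of -0.01. All of that came from set 1, with -1.22 there and 0 in sets 2 and 3, and without virgin 1 the difference was -0.25. Both arrays of set 1 stood apart from their groups. Virgin 1 read 7.09 against 6.72 and 6.51, and lactation 3 read 5.87 against 6.51 and 6.72.

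Adamts12 and Adamts18 met the rule for naming by their differences. Adamts12 read 5.21, 5.34 and 5.50 in virgin, 5.92, 5.89 and 5.70 in lactation, and 5.21, 5.04 and 5.74 in post-lactation. All lactation arrays lay above all virgin arrays, and post-lactation 3 reached into the lactation range. Lactation and virgin did not overlap, in either direction, for 477 of 11172 genes above background and for 2 of 22 members. Adamts18, an orphan protease of eye and epithelial development, read 3.39, 4.97 and 5.66 in virgin, 5.43, 5.04 and 4.16 in lactation, and 3.34, 5.12 and 4.35 in post-lactation. It exceeded the background level only through its lactation mean of 4.88, and its groups overlapped widely.

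The remaining readable members were given by group means. Adamts10, known for binding fibrillin, had means of 6.56, 6.67 and 6.82 in virgin, lactation and post-lactation, Adamts16 had 5.45, 5.29 and 5.18, and Adamts6 had 4.90, 5.24 and 4.87. Adamtsl2, a regulator of microfibrils and TGF-beta, had 6.27, 6.10 and 6.53, Adamtsl1 had 5.63, 5.41 and 5.15, and Adamtsl3 had 5.11, 4.90 and 5.24. Adamtsl4, another microfibril protein, read 4.79, 3.91 and 3.69 in virgin, 3.69, 3.97 and 3.63 in lactation, and 3.84, 3.69 and 3.91 in post-lactation. It was near background in all 3 groups.

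Virgin 1 shaped several of the virgin means. With each array centred on its median, virgin 1 was the lowest of the 9 arrays for 6 of 22 members above background and the highest for 4, against 16.1% and 27.5% of all genes above background. Adamtsl1 lay 2.09 below the mean of virgin 2 and 3 there, Adamts18 1.55 below, Adamtsl2 0.87 below and Adamts6 0.79 below. Adam4 lay 0.47 below, Adam19 0.41 below and Adam12 0.38 below. Adamts4 lay 1.35 above, Adam8 1.05 above and Adam9 0.81 above.

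Lactation was first compared with virgin, which addresses whether the matrix and membrane proteases differ while mineral is drawn from the skeleton. No member passed the test. Adam12 was higher in lactation, by 0.77 on the log2 scale (SE 0.26, 1.71-fold), and Adamts12 by 0.48 (SE 0.23), and 17 of the 22 members above background differed by less than 0.25. The mean was higher in lactation for 12 and lower for 10 of these 22, against 6189 and 4961 of all 11172 genes above background.

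Calls were made by limma over all 18194 genes, at a p under 0.05 after Benjamini-Hochberg adjustment: 0 of 48 members and 0.0% of all genes were called. Blocking on the array set, 0 members and 0.022% of genes were called, and the smallest adjusted p among the members was 0.193, that of Adam12. At an unadjusted p under 0.05 the members were Adam12 without the block, against 1.8% of genes, and Adam10, Adam12 and Adamts12 with it, against 8.01% of genes. With the array set as a random block instead, limma gave Adam12 an adjusted p of 0.0355 and called 1.06% of all genes. The groups of Adam12 did not overlap and differed by at least 0.5, as was so in that direction for 1.99% of genes above background. The median difference of the 48 members was 0.04, with 0.18, 0 and 0 in sets 1 to 3, and that of all genes was 0.01.

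The Adam12 difference ran the same way in all 3 sets, at 1.19, 0.77 and 0.36 in sets 1 to 3, a pattern with a difference of at least 0.5 that 4.59% of genes above background showed, and it was 0.52 without virgin 1 (limma adjusted p = 1.0). A second Adam12 probe set gave 0.63, 0.49 and 0.31 in the 3 sets, with groups that overlapped. That probe set exceeded the background level only through its mean in lactation, the group in which it was highest. Its mean difference was 0.48, and 0.28 without virgin 1 or 0.22 without lactation 2. Summed markers of 5 cell types were higher in every lactation array than in every virgin array. For every other cell type listed the sums of these groups overlapped. Those were osteocyte, neutrophil, B lymphocyte, megakaryocyte, endothelium, chondrocyte, periosteum and tendon, marrow stroma and adipocyte, and testis. Of the osteoclast markers 9 of 10 were above background, all but Calcr, and their summed level was 226 to 253 in virgin, 499 to 779 in lactation and 253 to 393 in post-lactation arrays. In lactation against virgin 0 of the 10 were called without the block and 1, Dcstamp, with it. The osteoblast and bone matrix markers, 5 measured and all above background, summed to 263 to 282 in virgin, 372 to 465 in lactation and 284 to 491 in post-lactation arrays. The erythroid markers, 8 measured and all above background, summed to 139 to 270, 421 to 512 and 7.72 to 18.6 in the same order. The macrophage markers, 8 measured and all above background, summed to 134 to 155, 160 to 208 and 138 to 184. The skeletal muscle markers, of which 3 of 6 were above background and Acta1, Myh4 and Tnnt3 were not, summed to 6.24 to 7.03, 7.47 to 8.73 and 5.29 to 6.96. Their part in the Adam12 difference was not tested. In such bulk samples, more cells of a type and more RNA per cell cannot be told apart.

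**Figure D3:**
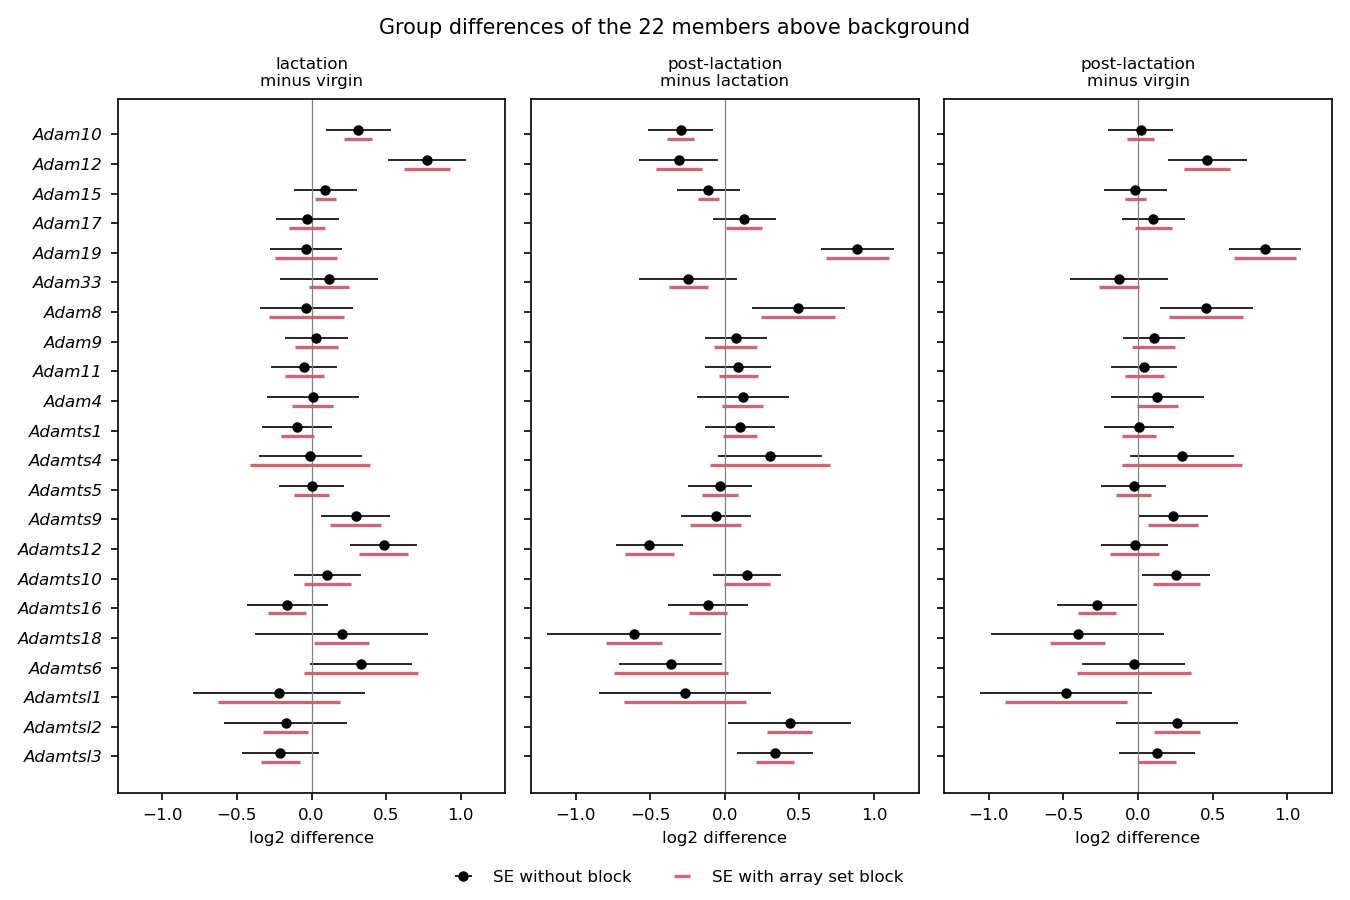
Log2 differences (horizontal axis) of the 22 members above background in the 3 comparisons; black lines are the standard error without a block and red lines that with the array set as a block. Adam12 at 0.77 in lactation minus virgin and Adam19 at 0.89 and 0.85 in the post-lactation comparisons lie farthest to the right. Of the 22 members, 17 lie within 0.25 of 0 in lactation minus virgin. In post-lactation minus lactation 11 do, and in post-lactation minus virgin 13.

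Post-lactation was then compared with lactation, which addresses what differs after weaning, when bone is rebuilt. Adam19 was higher after weaning, by 0.89 on the log2 scale (SE 0.24, 1.85-fold). Adamts12 was lower by 0.51 (SE 0.23) and Adam10 by 0.30. None of these passed the test, and the members were evenly split, with 11 higher and 11 lower among the 22 above background. Of all 11172 genes above background, 5075 were higher and 6082 lower.

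By limma, 0 of 48 members were called, against 0.709% of all genes, and blocking on the array set also 0 members, against 3.53%. Adam19 had an adjusted p of 0.256 without the block and 0.0939 with it, the smallest among the members in both fits. The groups of Adam19 did not overlap and differed by at least 0.5 in the higher direction, as was so for 2.69% of genes above background. At an unadjusted p under 0.05 stood Adam19 and Adamts12 without the block, against 5.06% of genes. With the block they were joined by Adam10, Adamts18, Adamtsl2 and Adamtsl3, against 15.1% of genes. The median difference of the 48 members was 0.01, with -0.05, 0 and 0 in sets 1 to 3, and that of all genes 0.00.

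The call of Adam19 depended on how the spread was estimated. Its difference was 1.02, 0.72 and 0.92 in sets 1 to 3. Its limma adjusted p was 0.0131 with the array set as a random block, which called 5.86% of all genes. It was 0.0113 with array weights, which called 1.92%, and 0.0103 with the block but without virgin 1, which called 5.1%. Virgin 1 is an array that enters only the estimate of the spread here. The highest array weights were those of set 3: 1.85 for virgin 3, 3.94 for lactation 1 and 3.16 for post-lactation 2. All other arrays had weights of 0.37 to 0.75. A second Adam19 probe set read 4.45 to 4.60 in lactation and 4.88 to 5.27 in post-lactation arrays, a difference of 0.52 (SE 0.19). In virgin arrays that probe set read 4.62 to 4.75. It thus exceeded the background level only through post-lactation, the group in which it was highest. Tested over all probe sets with the block, that probe set had a limma adjusted p of 0.0336, and without the block 1.0. The share of all probe sets called with the block was not counted.

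Adamts12 was lower after weaning in all 3 sets. A difference of at least 0.5 with 1 sign in all sets, as in Adam19 and Adamts12, was found for 11.2% of genes above background. Adamts12 differed by -0.48, -0.15 and -0.89 in sets 1 to 3, and without post-lactation 3 by -0.71. Array weights, highest for the arrays of set 3, gave Adamts12 a difference of -0.73 and a limma adjusted p of 0.0481. Adamts18 showed the same pattern but passed the background level only through lactation, the group in which it was highest, so it is not counted here. Its post-lactation mean of 4.27 lay below that level, and the difference of the means ran from -0.14 to -1.03 when 1 array was left out.

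Post-lactation was last compared with virgin, the contrast that asks what stays different a week after weaning. Adam19 was again higher after weaning, by 0.85 (SE 0.24, 1.81-fold). The differences given next changed in size when 1 array was left out. Adam12 was higher by 0.46 (SE 0.26) but by 0.21 without virgin 1. Its second probe set gave -0.02, with both group means under the background level. Adam8 was higher by 0.46 (SE 0.31) but by 0.074 without virgin 3. Adamtsl1 differed by -0.48 (SE 0.58), by -1.31 without virgin 1 and by 0.06 without virgin 2. No member passed the test, and 14 of the 22 members above background were higher and 8 lower. Among all 11172 genes above background 5267 were higher and 5885 lower. This comparison shares its post-lactation arrays with the preceding one, so the Adam19 values are not independent.

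By limma, 0 of 48 members were called, against 0.176% of all genes, and blocking on the array set also 0 members, against 0.451%. Adam19 had an adjusted p of 0.853 without the block and 0.279 with it, and 0.0474 with the array set as a random block, which called 1.28% of genes. Its groups did not overlap, as for 0.976% of genes above background in the higher direction at a difference of at least 0.5. Within sets 1 to 3 the Adam19 difference was 1.51, 0.42 and 0.62, 1 sign throughout as for 4.83% of genes above background at a difference of at least 0.5, and without virgin 1 it was 0.59. The second Adam19 probe set, above background only through post-lactation, gave 0.26, 0.52 and 0.29. At an unadjusted p under 0.05 stood Adam19 without the block, against 2.09% of genes. With it stood Adam12, Adam19 and the near-background Adam24 and Adamts15, against 8.11%. The median difference of the 48 members was 0.06, with 0.12, 0 and 0 in sets 1 to 3, and that of all genes 0.00.

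**Figure D4:**
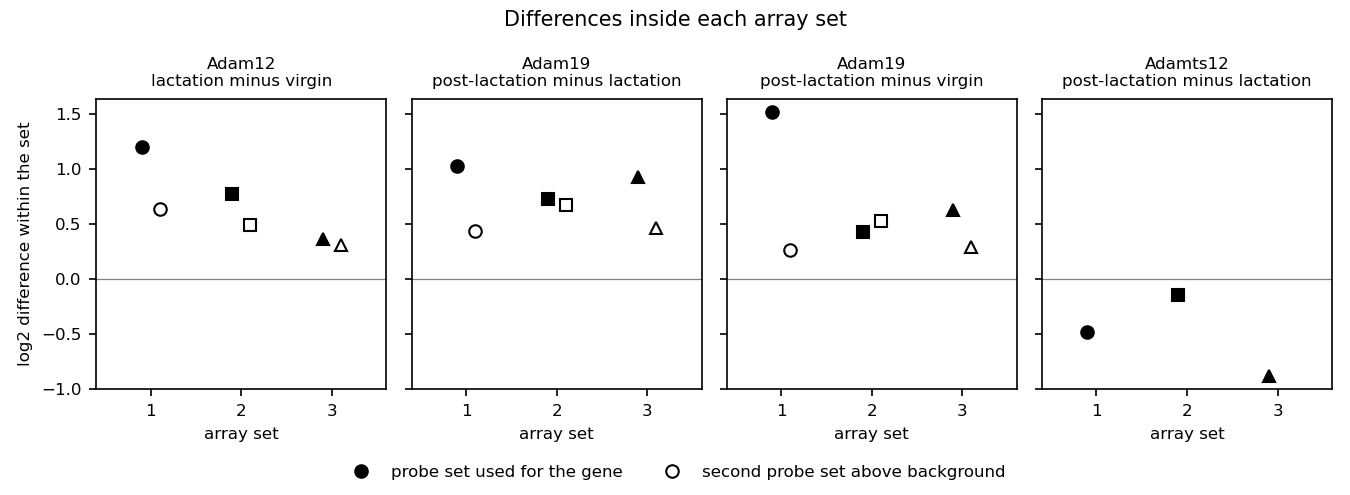
Log2 difference inside each array set (1 array of each group) for Adam12, Adam19 and Adamts12. Filled symbols are the probe set used and open symbols a second probe set above background. The second probe sets of Adam12 and Adam19 passed that level only through the group in which each was highest. The panels are Adam12 in lactation minus virgin and Adam19 in post-lactation minus lactation and minus virgin, with all points above 0 and the highest, 1.51 for Adam19 in set 1, resting on virgin 1, and Adamts12 in post-lactation minus lactation, with all points below 0.

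Levels of marrow and blood cell markers stood as follows beside Adam19. The marrow stroma and adipocyte markers, 5 measured and 4 above background, all but Cidec, summed to 370 to 391 in virgin, 291 to 391 in lactation and 392 to 719 in post-lactation arrays. All post-lactation arrays were the highest in this sum, as in Adam19, though the lowest of them exceeded the others by little, and 0 of the 5 genes were called in either comparison with or without the block. The B lymphocyte markers, 6 measured and all above background, summed to 21.4 to 75.7 in virgin, 37.3 to 63.4 in lactation and 95.1 to 181 in post-lactation arrays. In this sum too all post-lactation arrays were the highest. The neutrophil markers, 9 measured and all above background, summed to 3745 to 5367, 3147 to 4298 and 4354 to 4838 in the same order. With the block, 1 of the 6 B lymphocyte and 1 of the 9 neutrophil genes were called higher in post-lactation against lactation. The share of all genes called there was 3.53%. The erythroid markers were lower in every post-lactation array, as given above. Their part in the Adam19 difference was not tested.

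The proteins that switch these proteases on, guide them and block them were read from lists. Of 15 activators and partners, which include the proprotein convertases, the iRhoms that carry ADAM17 to the surface and the TspanC8 tetraspanins that carry ADAM10, limma without a block called 0 in lactation against virgin. It called 1 lower in post-lactation against lactation, against 0.709% of all genes called. The same gene was called lower in post-lactation against virgin, against 0.176%. That gene was Tspan33, a TspanC8 tetraspanin that is also known as a membrane protein of erythroblasts. With the array set block, 1 of the 15 was called higher and 1 lower in post-lactation against lactation, against 3.53% of all genes. In post-lactation against virgin 1 was called lower with it, against 0.451%. The median difference of the list was 0.08, 0.07 and 0.10 in the 3 comparisons in the order above.

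Tspan33 had a log2 signal of 8.25, 9.10 and 7.89 in virgin, 9.48, 10.18 and 9.48 in lactation, and 5.59, 5.23 and 5.17 in post-lactation. The post-lactation arrays lay far below all others. Tspan33 fell by 4.38 on the log2 scale (SE 0.32, 20.8-fold, limma adjusted p = 7.52e-05) from lactation to post-lactation, and its difference from virgin to post-lactation was -3.08 (8.47-fold lower, limma adjusted p = 0.00282). All 8 erythroid markers measured were called lower in both of these comparisons too, with a median difference of -4.80 against lactation and -3.52 against virgin, and their part in the Tspan33 difference was not tested.

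The other partners of ADAM10 and ADAM17 stayed closer together. Tspan14 read 8.30, 8.48 and 8.29 in virgin, 8.06, 8.17 and 8.21 in lactation, and 8.73, 8.43 and 8.88 in post-lactation. Its post-lactation arrays all lay above the lactation arrays, by a mean of 0.53 (SE 0.20), with a limma adjusted p of 0.680 without the block and 0.0347 with it. Furin, the convertase that removes the inhibitory propeptide, differed by at most 0.18 between any pair of groups, and Rhbdf2, the iRhom of immune cells, by at most 0.14.

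The 5 inhibitors were the TIMPs, of which TIMP3 acts most broadly on ADAM and ADAMTS proteases, and Reck, a membrane-anchored inhibitor of ADAM10. None was called without a block in any comparison. Timp1 read 8.12, 8.31 and 8.65 in virgin, 9.57, 9.47 and 9.12 in lactation, and 6.93, 8.04 and 8.61 in post-lactation, so that lactation lay above both other groups in every array. Timp1 was lower in post-lactation than in lactation, with a difference of -1.52 (SE 0.36), a limma adjusted p of 0.145 without the block and 0.0418 with it. Timp3 differed by 0.54 and Reck by 0.49 in the same comparison, both higher after weaning and neither called in either fit. Timp3 depended on single arrays, with 0.19 without lactation 3 and 0.81 without lactation 1.

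The substrates were read in the same way. Of 27 measured ADAM substrates, among them Notch receptors, EGF receptor ligands, Tnfsf11 (RANKL) and Csf1, limma called 0 in each comparison without the block. With it 1 was called, in post-lactation against lactation, or 3.7% against 3.53% of all genes. This was Notch1, higher in post-lactation than in lactation by 0.45 (SE 0.26; limma adjusted p = 1.0 without and 0.0490 with the block), and by 0.21 without lactation 3. The median difference of this list was -0.03, 0.17 and 0.22 in the 3 comparisons, and 12, 19 and 21 of its 27 genes had the higher mean in the first-named group, against 9486, 9089 and 9207 of all 18194 genes. Of 14 measured ADAMTS substrates, among them Vcan, Acan, Comp and the fibrillar collagens, 0 were called in any comparison in either fit. The same count, 0 of 5, held for the procollagen C-proteinases and their enhancers.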

How the data were processed

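The deposited table held log2 values of 9 arrays. Per the submitters' processing notes the authors used RMA, with GenePattern and Bioconductor named in the design text; versions and filters: not given in the sources used here. RMA corrects background, equalises array distributions and fits a median polish, which leaves exactly equal values among arrays processed together; more than 100 equal probe sets tied arrays into a set. No values were missing, and no further log was taken. Of 45101 probe sets, 34958 named 1 gene, 932 several and 9211 none. The 4 probe sets shared by Adam1a and Mapkapk5 and the 1 shared by Adam6a and Adam6b were left out, and 10 family genes without a probe set of their own were not analysed here.

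Comparisons used limma (version 3.58.1, under R 4.3.3; lmFit and eBayes without trend, group means, 9 arrays), with p-values adjusted over 18194 genes and a call at an adjusted p under 0.05. Folds are powers of 2 of log2 differences. The scripts were tested on simulated data. Alternatives were blocks by array set (fixed, or random with statmod version 1.5.0 and a consensus correlation of 0.79) or replicate number, array weights, other scalings, probe set rules and background levels, and each array left out. The number of arrays limits the precision: the median SE of a member above background was 0.25, and 0.15 with the array set block.

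Members, roles, marker and pathway lists were chosen with earlier results of these data known. Values in every array are given for preset members (Adam8, Adam9, Adam10, Adam12, Adam15, Adam17, Adam19, Adam28, Adam33, Adamts1, Adamts4, Adamts5, Adamts9, Adamts12 and Adamtsl4) and for any called member, and for members above background whose groups did not overlap, or whose sign was the same in all sets, with a difference of at least 0.5.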

Additional observations from a re-analysis of the deposited data

How the results depend on the processing

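No member was called in any comparison without a block, with the array set block, with the replicate block (0 members called in each comparison), or with any 1 array left out of the fit without a block. Replicate numbers did not pair the arrays: deviations of same-numbered arrays correlated at -0.41 to 0.67, with 2 of 9 pairs above 0.1, and those of the same array set at 0.47 to 0.73. The array set as a random block called 1 member in each comparison, Adam12 in lactation against virgin and Adam19 in both post-lactation comparisons. Array weights called 2 members in post-lactation against lactation, Adam19 and Adamts12. A second Adam19 probe set, above background only through post-lactation, passed in that comparison with the array set block (limma adjusted p = 0.0336 over all probe sets). How many of all probe sets passed there was not counted. The array set block without virgin 1, a setting chosen after seeing the data, called 1, Adam19, in that comparison. The cause of these changes was not tested. The median difference of the members ran from -0.049 to 0.15 in lactation against virgin, from -0.090 to 0.11 in post-lactation against lactation and from -0.076 to 0.16 in post-lactation against virgin when 1 array was left out, and so has no settled direction. The ranges that follow cover all alternatives, in which arrays were left out only for the probe set used. Adam12 differed by 0.48 to 0.98 in lactation against virgin, with limma adjusted p from 0.0355 to 1.0. Adam19 differed by 0.52 to 1.04 in post-lactation against lactation, with limma adjusted p from 0.0103 to 1.0. Adamts12 differed by -0.73 to -0.11 in the latter comparison, the value nearest 0 coming from its other probe set. Near background stood 18 to 33 members, depending on the level chosen (4.11 to 5.64), against 26. Scalings moved the median of all genes by at most 0.0046.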

Other observations

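Probe sets that name more than 1 gene were outside the comparisons. The 4 shared by Adam1a and Mapkapk5 had mean log2 signals of 3.69 to 4.32 over the 9 arrays, and the 1 shared by Adam6a and Adam6b had 3.06, all under the background level. The Adamtsl1 probe set other than the one used read 3.71, 6.56 and 6.71 in virgin, 5.50, 5.60 and 6.10 in lactation, and 4.08, 4.83 and 5.17 in post-lactation, with all post-lactation arrays below all lactation arrays, a difference of -1.04 (SE 0.66) where the probe set used gave -0.26; the limma adjusted p over all probe sets was 1.0. An Adamts9 probe set other than the one used read 7.63, 7.42 and 7.69 in lactation and 7.82, 7.75 and 7.89 in post-lactation, a difference of 0.24 (SE 0.22, limma adjusted p = 1.0), where the probe set used gave -0.06.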
